A study of Mus musculus with 8 samples.

Results

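The genes described here encode 7 families of mouse enzymes that act on aldehydes, ketones, epoxides and esters, or that couple small molecules to glucuronate or sulfate. Members were all genes of the deposited table whose symbol begins with Aldh, Akr, Cbr, Ces, Ephx or Sult followed by a digit, or with Ugt1, Ugt2 or Ugt3 followed by the letter a or b. The rule read names and no measured value. It took 107 of the 22274 genes: 21 aldehyde dehydrogenases (Aldh), 21 UDP-glucuronosyltransferases (Ugt), 21 sulfotransferases (Sult), 19 carboxylesterases (Ces), 17 aldo-keto reductases (Akr), 4 carbonyl reductases (Cbr) and 4 epoxide hydrolases (Ephx).

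The study sequenced RNA of RFB cells, labelled as a fibroblast line from mouse kidney, in 8 libraries. In 4 libraries the cells had been given transforming growth factor β (TGF-β), a cytokine that induces extracellular matrix genes. In the other 4 libraries they had been given TGF-β together with chaetocin, a fungal disulfide compound used to inhibit the SUV39 histone H3 lysine 9 methyltransferases and known also to act on thioredoxin reductase. Both groups share the TGF-β treatment, no library without it was analysed here, and the comparison is therefore chaetocin on top of TGF-β. Neither dose nor duration is given in the sources used here, and no label names a strain, a genotype or a batch. The design text of the series also speaks of SUV39H1 knockdown derivatives, which no sample label mentions. Nothing says that the libraries came from separate cultures, so the p-values below measure the spread between these libraries, which may be technical. In such bulk libraries, fewer cells of one kind and less RNA per cell cannot be told apart.

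Aldo-keto and carbonyl reductases turn aldehydes and ketones into alcohols with NADPH, aldehyde dehydrogenases oxidise aldehydes to acids, epoxide hydrolases open epoxides with water and carboxylesterases split esters. UDP-glucuronosyltransferases and sulfotransferases then attach glucuronate or sulfate, which makes steroids, bilirubin, phenols and drugs soluble enough to be exported. In the kidney these enzymes are best known from the proximal tubule, and several families are also controlled by the transcription factors NRF2 (Nfe2l2) and AHR, whose motifs were looked for in the promoters described below.

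The libraries held 20135312 to 23664084 counts with TGF-β alone. With chaetocin, replicate 1 held 22591935 counts and the other 3 libraries 14421225 to 15084876. The members took 0.168% to 0.172% of the counts with TGF-β alone and 0.162% to 0.163% with chaetocin. The label fibroblast was checked against marker genes, and the data go against it in part. Epithelial genes were abundant with TGF-β alone: the keratin gene Krt8 stood at 1582 ± 29.6 TMM-scaled CPM (counts normalised to library size; SD, n = 4), the cadherin gene Cdh1 at 651 ± 8.10 CPM and Epcam at 285 ± 7.44 CPM, while of the fibroblast markers the proteoglycan gene Dcn had 11 counts and Lum 1 count over the 4 libraries. Of the same list, Vim stood at 1163 ± 30.2 CPM, Col1a1 at 233 ± 10.6 CPM and Col1a2 at 60.2 ± 5.93 CPM. Those genes held nearly all of the summed CPM of the list given below, so its remaining genes were low. Marker levels also moved with the treatment. The summed CPM of the 10 fibroblast markers lay between 1435 and 1520 with TGF-β alone and between 507.5 and 649.7 with chaetocin (5 of 9 tested genes lower, 1 higher), and that of the 10 macrophage markers between 291.4 and 331.7 and between 165.6 and 201.8 (7 of 10 lower, 3 higher). That of 10 tubule markers outside the proximal tubule lay between 3571 and 3731 and between 6702 and 6990 (6 of 8 higher, 1 lower), that of 10 proximal tubule markers between 77.2 and 83.6 and between 102.4 and 114.6 (1 of 4 higher, 2 lower), and that of 6 endothelial markers between 52.9 and 59.7 and between 84.0 and 91.2 (4 of 6 higher, 2 lower). The part of these shifts in the results on the enzymes was not tested.

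Of the 107 members, 53 passed the filter on low counts and were tested. With chaetocin, 29 of the 53 rose, 18 fell and 6 did not pass the test (edgeR quasi-likelihood test, Benjamini-Hochberg adjusted p under 0.05), in a fit in which 42% of the 14608 tested genes rose and 38.8% fell. In either direction 80.7% of tested genes were called. The median log2 fold change was 0.50 over the tested members and 0.02 over all tested genes. The fitted sizes of the members at 0 with TGF-β alone do not change that median, since their lower bounds lie above it, but their direction does. At least doubled were 23 of the 53 members, against 19.7% of tested genes, and 2 were at most halved, against 4.88%. Levels of the libraries did not overlap between the groups for 29 higher and 17 lower members, where 39% and 35.7% of all tested genes did so. The filter bears on these counts: 15 of the 53 members reached its minimum of 10 counts, at the median library size, only in the 4 chaetocin libraries, and such genes had to differ. No member reached it in the TGF-β libraries only. The same held for 1780 and 122 of all tested genes. The 15 members are all among the 29 that rose and the 23 at least doubled, and they lie above the median of 0.50. The filter thus raised these figures, and no excess of members over all genes can be read from them. Without the filter 55 members were called higher, with medians of 2.20 over members and 0.21 over all genes, and DESeq2 called 47. Values are also given below for members outside the naming rule of the methods, which were chosen after their values were seen.

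Directions differed between the families, in a fit in which 42% of all tested genes rose and 38.8% fell. Every called carboxylesterase, epoxide hydrolase, sulfotransferase and UDP-glucuronosyltransferase rose (3 of 5, 3 of 3, 5 of 5 and 6 of 7 tested members), and none of these 4 families had a member called lower by edgeR, DESeq2 or limma, or lower at an unadjusted p under 0.05. The filter fixed much of this, since 3 of the 3 called Ces, 3 of the 5 called Sult and 5 of the 6 called Ugt genes had passed it only through the chaetocin libraries, where they were high. No called Ephx or Cbr gene had done so, and 2 called genes each of the Akr and Aldh families had. Among aldehyde dehydrogenases 5 of 18 tested members rose and 11 fell. Among aldo-keto reductases 4 of 11 rose and 6 fell, and among carbonyl reductases 3 of 4 rose and 1 fell. With libraries scaled to their total counts, which moves the median log2 fold change of all genes from 0.02 to 0.14, the aldehyde dehydrogenases split into 6 higher and 8 lower and the carbonyl reductases into 3 higher and 0 lower.

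**Figure D1:**
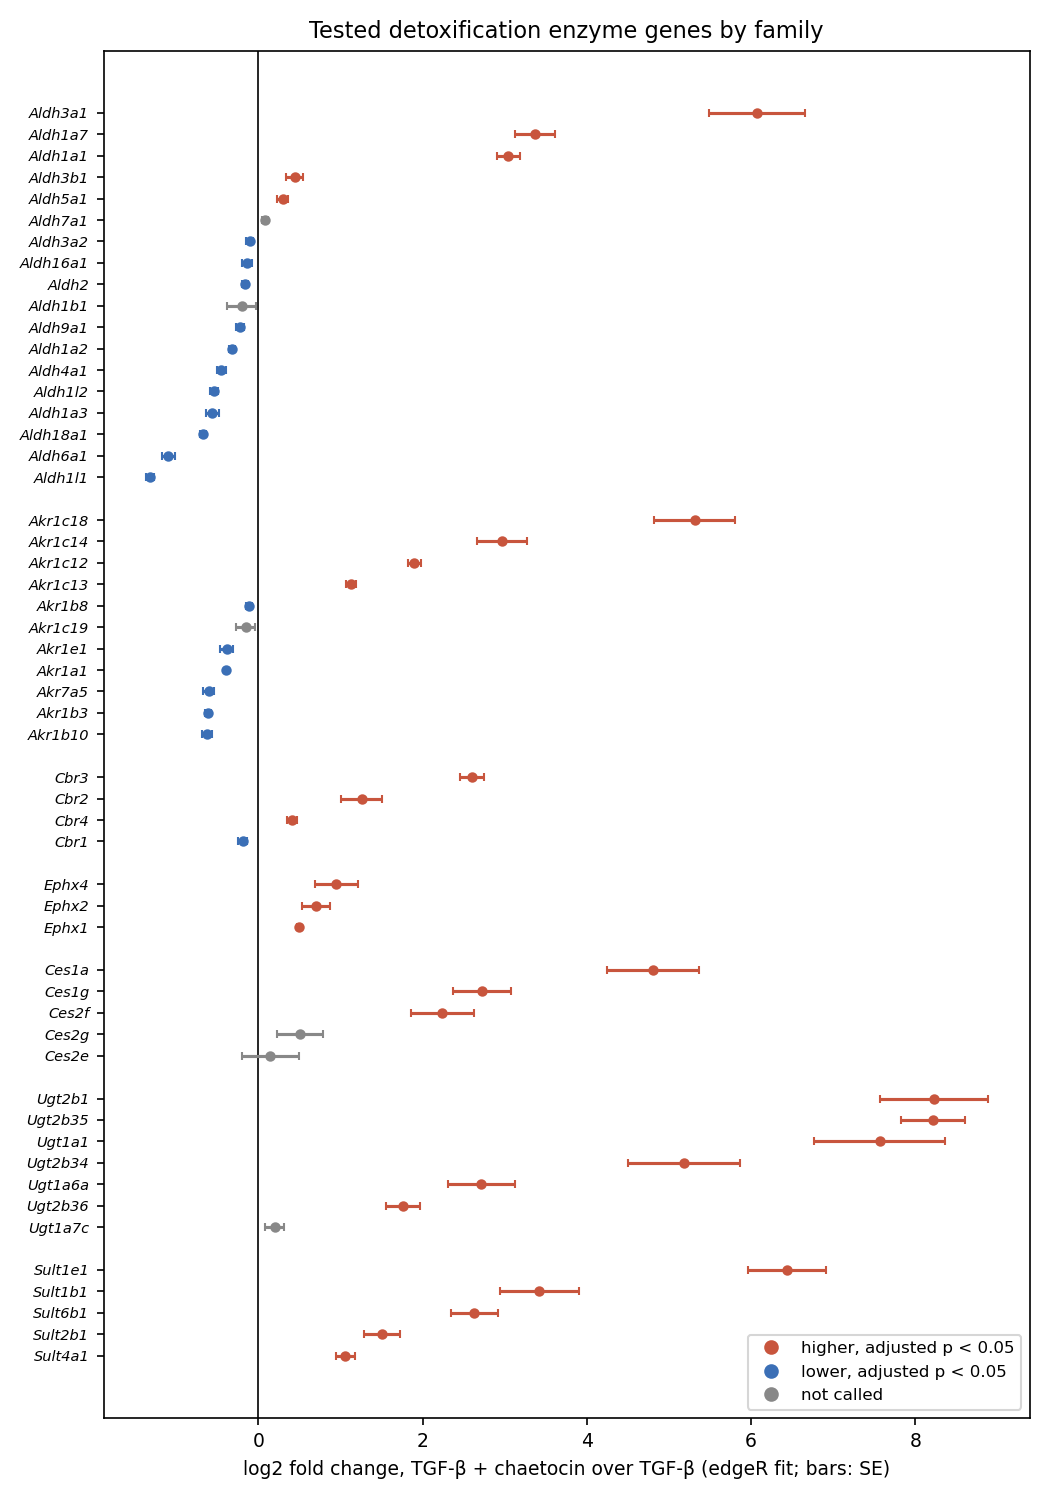
Log2 fold change of TGF-β with chaetocin over TGF-β alone (x axis) for the 53 tested members, grouped by family (rows); points are edgeR estimates, bars their standard errors, and colours mark genes called higher, called lower or not called. All red or blue points of the Ephx, Ces, Ugt and Sult blocks lie to the right of 0, while the Aldh and Akr blocks reach down to -1.32 (Aldh1l1) and -0.62 (Akr1b10). The fitted values of genes with 3 counts or fewer in the TGF-β group depend on the prior count and are only drawn, not quoted.

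The aldo-keto reductases divided by subfamily and by abundance. The members that the TGF-β cells expressed most fell, and 4 members of the AKR1C subfamily, which act on steroids and other ketones, rose. Of these 4, Akr1c14 and Akr1c18 had passed the filter only through the chaetocin libraries, which fixed their direction. Per length of the gene, the family summed to 591 ± 8.61 FPKM with TGF-β alone and 515 ± 2.32 FPKM with chaetocin (SD, n = 4). FPKM are fragments normalised to gene length and library depth. Akr1a1 alone made up 54.2% and 51.5% of that sum. Summed CPM of the family went from 869 ± 12.9 to 693 ± 2.75.

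Akr1a1 encodes aldehyde reductase, which in mice also makes a precursor of ascorbate (ENSMUSG00000028692; GRCm38, chr4:116636510-116651680, minus strand). It was the most abundant member, at 321 ± 5.26 FPKM with TGF-β alone and 265 ± 2.40 FPKM with chaetocin. Its level in the 4 TGF-β libraries was 473, 478, 479 and 464 CPM, and in the 4 chaetocin libraries 363, 357, 366 and 363 CPM. All chaetocin libraries lay below all TGF-β libraries, and the log2 fold change was -0.39 (SE 0.02, adjusted p = 4.44e-15). Akr1b3, aldose reductase, which reduces glucose to sorbitol, was at 237, 224, 237 and 218 CPM with TGF-β alone and at 155, 154, 142 and 147 CPM with chaetocin. The groups did not overlap (log2 fold change -0.61, SE 0.03, adjusted p = 5.58e-16).

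Akr1b3 lies at chr6:34302434-34317478, on the minus strand, beside Akr1b8, Akr1b10 and Akr1b7. Akr1b10 fell from 30.4 ± 1.37 to 19.7 ± 0.754 CPM (log2 change -0.62, SE 0.06, adjusted p = 5.69e-11). Akr1b8, whose product is a reductase of aliphatic aldehydes, differed little: 66.8 ± 1.05 and 61.9 ± 2.72 CPM, groups overlapping, log2 fold change -0.11 (SE 0.04, adjusted p = 0.00819). Its call depended on the scaling, with a log2 difference of 0.0028 (adjusted p = 0.947) when libraries were scaled to total counts. Akr1b7 was too low to be tested, with 6 counts over the TGF-β libraries and 25 over the chaetocin libraries. Elsewhere in the genome, the aflatoxin aldehyde reductase gene Akr7a5 fell from 23.6 ± 0.658 to 15.4 ± 1.82 CPM (log2 change -0.60, SE 0.07, adjusted p = 9.24e-09).

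The AKR1C genes sit together on chromosome 13 (GRCm38, chr13:4049011-4609174, with Akr1e1 at the far end). Akr1c12 and Akr1c13, a pair of closely similar reductases of this cluster, were the only ones above 1 FPKM with TGF-β alone apart from Akr1c19 and Akr1e1. Akr1c12 had 5.42, 5.62, 5.43 and 6.25 CPM with TGF-β alone and 20.8, 21.2, 21.3 and 21.9 CPM with chaetocin. That was a log2 fold change of 1.90 (SE 0.08, adjusted p = 2.58e-18), with no overlap. Akr1c13 had 19.0, 18.2, 17.5 and 19.7 CPM and then 39.0, 39.4, 39.4 and 45.3 CPM. Its groups did not overlap either (log2 fold change 1.13, SE 0.06, adjusted p = 4.21e-16). Of all 50-base windows of their GENCODE transcripts, 28.6% for Akr1c12 and 24.2% for Akr1c13 recur in another gene, chiefly each other, so reads could have been assigned to either and the sizes of the 2 changes are uncertain. Their promoters are shown because these 2 similar genes both rose, while Akr1c19, which lies between them, did not pass the test. The 300-base windows around the RefSeq starts could be aligned over 296 bases, of which 284 (95.9%) were identical. The 250 bases before each start are printed 5′ to 3′ along the gene (RefSeq, GRCm38.p6; Akr1c12 at chr13:4279400-4279649, minus strand, Akr1c13 at chr13:4190937-4191186, plus strand), with CG dinucleotides, the sites of DNA methylation, in capitals:
Akr1c12: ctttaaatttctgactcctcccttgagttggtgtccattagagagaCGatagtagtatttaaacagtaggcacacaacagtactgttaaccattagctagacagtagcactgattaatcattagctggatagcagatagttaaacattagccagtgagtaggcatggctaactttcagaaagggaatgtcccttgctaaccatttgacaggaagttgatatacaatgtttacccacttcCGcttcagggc
Akr1c13: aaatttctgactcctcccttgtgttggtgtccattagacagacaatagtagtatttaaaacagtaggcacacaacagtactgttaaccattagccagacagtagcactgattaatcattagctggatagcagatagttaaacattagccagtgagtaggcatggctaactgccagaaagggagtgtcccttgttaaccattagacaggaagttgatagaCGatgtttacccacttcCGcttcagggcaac

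Akr1c14, a 3α-hydroxysteroid dehydrogenase, and Akr1c18, the 20α-hydroxysteroid dehydrogenase that inactivates progesterone, were nearly silent with TGF-β alone. Akr1c14 had 6, 4, 2 and 7 counts there and 42, 29, 26 and 29 with chaetocin. The groups did not overlap (log2 fold change 2.97, SE 0.31, adjusted p = 1.3e-09). Akr1c18 had 0, 0, 1 and 2 counts and then 43, 26, 16 and 32. Scaled by library size the summed counts were 47.1 times higher with chaetocin (95% exact binomial interval 15.7 to 231.5, covering counting error only, as do all such intervals below; adjusted p = 1.31e-10). Akr1c19 did not pass the test (7.50 ± 1.05 and 6.79 ± 0.466 CPM), and Akr1e1 fell from 13.8 ± 0.326 to 10.6 ± 0.939 CPM (log2 change -0.38, adjusted p = 7.89e-05). Akr1c6, Akr1c20 and Akr1c21 were too low to be tested.

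For contrast with the AKR1C pair, the 250 bases before the start of Akr1a1, the most abundant member and one that fell, are shown in the same way (chr4:116651675-116651924, minus strand). They hold 7 CG dinucleotides, and each of the 2 AKR1C sequences holds 2:
Akr1a1: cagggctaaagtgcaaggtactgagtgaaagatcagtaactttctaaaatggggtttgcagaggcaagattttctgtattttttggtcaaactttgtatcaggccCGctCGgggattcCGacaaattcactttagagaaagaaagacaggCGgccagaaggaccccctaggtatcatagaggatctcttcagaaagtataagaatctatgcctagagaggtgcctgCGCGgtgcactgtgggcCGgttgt

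**Figure D2:**
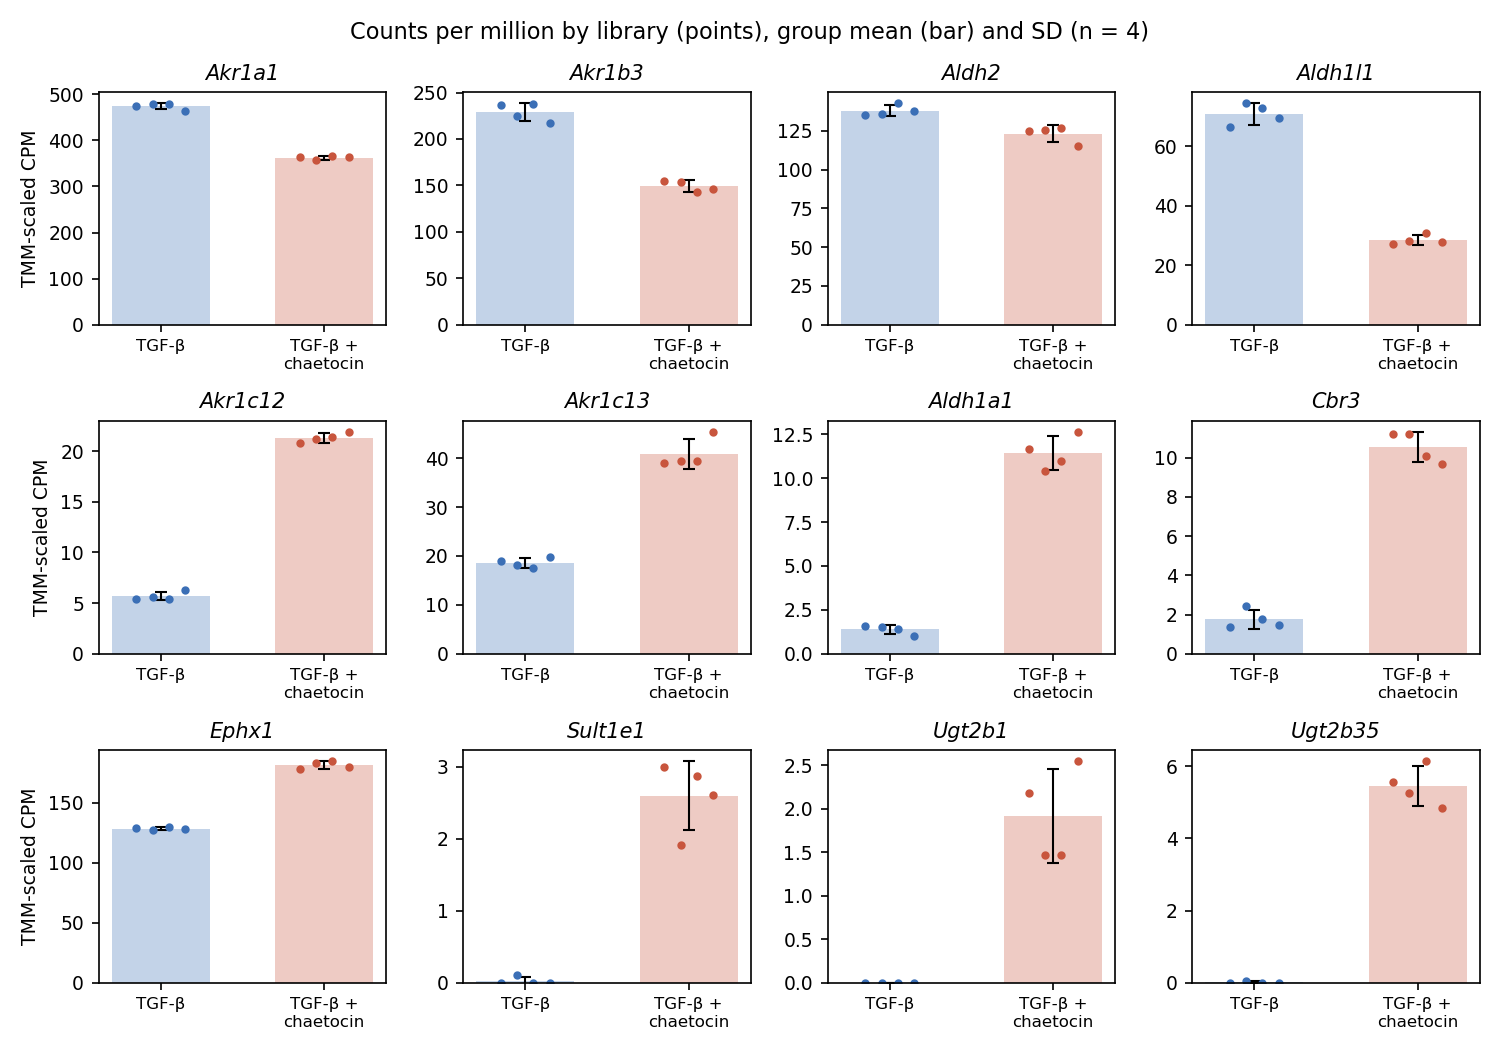
Level in CPM scaled by TMM (y axis, from 0) of 12 members in each library; points are the 8 libraries, bars group means and whiskers the SD (n = 4). Akr1a1, Akr1b3, Aldh2 and Aldh1l1 are lower with chaetocin in every library, and the other 8 genes are higher, Ugt2b1 from 0 in all TGF-β libraries.

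Most aldehyde dehydrogenases fell by small amounts, and 3 of the 5 that rose were low in the TGF-β cells. Of these 3, Aldh1a7 and Aldh3a1 had passed the filter only through the chaetocin libraries. The family summed to 286 ± 4.31 FPKM with TGF-β alone and 264 ± 5.97 FPKM with chaetocin, and to 699 ± 8.23 and 567 ± 5.72 CPM. Aldh2, the mitochondrial enzyme that clears acetaldehyde, held 35.3% and 37.2% of the FPKM sum. It had 135, 136, 143 and 138 CPM with TGF-β alone and 125, 126, 127 and 115 CPM with chaetocin. The groups did not overlap, but the difference was small (log2 fold change -0.16, SE 0.03, adjusted p = 3.96e-05) and was not called with total-count scaling (-0.05, adjusted p = 0.17).

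The 3 largest falls of the family were those of Aldh1l1, Aldh6a1 and Aldh18a1. Aldh1l1, cytosolic 10-formyltetrahydrofolate dehydrogenase (chr6:90486427-90600203, plus strand), had 66.4, 74.5, 72.8 and 69.5 CPM with TGF-β alone and 27.1, 28.1, 30.7 and 27.9 CPM with chaetocin. Every chaetocin library was below every TGF-β library, with a log2 fold change of -1.32 (SE 0.05, adjusted p = 1.21e-19). Aldh6a1, methylmalonate semialdehyde dehydrogenase of valine breakdown, fell from 17.7 ± 0.947 to 8.26 ± 0.706 CPM (log2 change -1.10, SE 0.08, adjusted p = 8.49e-13). Whether counting used strand is not stated, and 1078 exon bases of Aldh6a1 overlap Bbof1, 499 of Aldh1l1 overlap Gm15756 and 1056 of Aldh1l2 overlap D10Wsu102e on the other strand. Aldh18a1, which makes the proline precursor pyrroline-5-carboxylate, fell from 109 ± 2.38 to 68.4 ± 4.84 CPM (log2 change -0.67, SE 0.04, adjusted p = 5.5e-15), and Aldh1l2, the mitochondrial counterpart of Aldh1l1, from 44.9 ± 2.01 to 31.0 ± 2.23 CPM (log2 change -0.54, SE 0.05, adjusted p = 2.67e-10). Aldh4a1, which breaks pyrroline-5-carboxylate down, fell too, from 29.1 ± 1.21 to 21.3 ± 1.12 CPM (log2 change -0.45, adjusted p = 3.57e-08), although 30.0% of its 50-base windows recur in a second gene model. Aldh1l1 and Aldh6a1 were the 2 members at most halved.

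The 3 retinaldehyde dehydrogenases, which make retinoic acid, did not move together. Aldh1a1 (chr19:20492715-20643465, plus strand) had 1.56, 1.55, 1.43 and 1.01 CPM with TGF-β alone and 11.7, 10.4, 11.0 and 12.6 CPM with chaetocin, 8.25 times as much on the fitted scale. The groups were far apart (log2 fold change 3.05, SE 0.14, adjusted p = 3.66e-17). Its neighbour and close relative Aldh1a7 rose from 0.408 ± 0.0999 to 4.30 ± 0.948 CPM (log2 change 3.37, SE 0.25, adjusted p = 9.74e-13), and 7.49% of its 50-base windows occur in another gene. In contrast Aldh1a2 fell from 57.3 ± 1.88 to 45.9 ± 1.54 CPM (log2 change -0.32, SE 0.04, adjusted p = 6.54e-08) and Aldh1a3 from 15.6 ± 0.791 to 10.6 ± 0.459 CPM (log2 change -0.56, SE 0.07, adjusted p = 1.28e-07). Per length, Aldh1a2 remained the most abundant of the 3 with chaetocin, at 21.1 ± 0.692 FPKM against 5.79 ± 0.472 FPKM for Aldh1a1 and 3.96 ± 0.292 FPKM for Aldh1a3. With TGF-β alone, Aldh1a2 was at 24.3 ± 0.721 FPKM, Aldh1a3 at 5.47 ± 0.384 FPKM and Aldh1a1 at 0.650 ± 0.123 FPKM. Aldh1a1 and Aldh1a3 thus changed places in that order.

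Aldh3a1, which oxidises aromatic and medium-chain aldehydes and is abundant in the cornea, had 1, 0, 0 and 0 counts with TGF-β alone and 24, 19, 24 and 18 with chaetocin. The scaled ratio of the summed counts was 103 (95% interval 17.9 to 4098, adjusted p = 2.93e-10). Its neighbour Aldh3a2, fatty aldehyde dehydrogenase, was at 54.9 ± 1.69 and 51.0 ± 0.832 CPM (log2 change -0.11, adjusted p = 0.0147), and the authors' deposited table gives its log2 ratio of mean FPKM as 0.0047. Aldh3b1, which acts on aldehydes from lipid peroxidation, rose from 6.27 ± 0.432 to 8.50 ± 0.417 CPM (log2 change 0.44, SE 0.10, adjusted p = 0.000284). Succinic semialdehyde dehydrogenase, Aldh5a1, rose from 13.7 ± 0.821 to 16.9 ± 0.592 CPM (log2 change 0.30, adjusted p = 0.000299), and 999 of its exon bases overlap genes on the other strand. Aldh7a1, the lysine pathway enzyme and the second most abundant of the family per length, did not pass the test in the fit as designed (76.4 ± 2.81 and 80.6 ± 3.31 CPM, log2 fold change 0.08, adjusted p = 0.055). It was called higher when libraries were scaled to total counts (0.19, adjusted p = 3.39e-05) or by DESeq2's size factors (0.09, adjusted p = 0.0236), with a minimum of 1 CPM (0.10, adjusted p = 0.0192), on FPKM, and also when TGF-β replicate 3, chaetocin replicate 1 or chaetocin replicate 3 was left out (adjusted p = 0.0463, 0.0447 and 0.0307). Smaller falls were called for Aldh9a1, of carnitine synthesis (39.1 ± 0.907 to 33.4 ± 1.55 CPM), and Aldh16a1 (log2 fold change -0.14), and Aldh1b1 did not pass the test (log2 fold change -0.20).

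The 2 carbonyl reductases on chromosome 16 went opposite ways. Cbr3 (chr16:93683215-93690990, plus strand), which reduces quinones, had 1.38, 2.42, 1.78 and 1.45 CPM with TGF-β alone and 11.2, 11.2, 10.1 and 9.69 CPM with chaetocin. No library of the first group came near the second (log2 fold change 2.60, SE 0.15, adjusted p = 2.63e-15). Cbr1 (chr16:93605853-93610505, plus strand), the general carbonyl and prostaglandin reductase, had 30.7, 30.0, 29.1 and 28.1 CPM and then 26.9, 24.7, 24.9 and 26.5 CPM. This small fall, with groups that did not overlap (log2 fold change -0.19, SE 0.05, adjusted p = 0.00175), was lost with total-count scaling (-0.08, adjusted p = 0.175). The family sum went from 33.6 ± 1.29 to 47.2 ± 2.30 FPKM, and the share of Cbr1 from 70.8% to 49.9%. Cbr2 rose from 0.751 ± 0.235 to 1.82 ± 0.0780 CPM (log2 change 1.26, SE 0.25, adjusted p = 4.1e-05) and Cbr4, a subunit of mitochondrial ketoacyl reductase, from 16.3 ± 1.12 to 21.7 ± 0.456 CPM (log2 change 0.41, SE 0.06, adjusted p = 1.27e-06).

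The 250 bases before the starts of both genes are printed because neighbouring paralogs differed in direction (RefSeq, GRCm38.p6; Cbr1 at chr16:93607587-93607836 and Cbr3 at chr16:93682969-93683218, both plus strand; CG in capitals). The RefSeq start of Cbr1 lies inside the longer GENCODE span of the gene. Cbr1 holds 6 CG dinucleotides there and Cbr3 holds 14:
Cbr1: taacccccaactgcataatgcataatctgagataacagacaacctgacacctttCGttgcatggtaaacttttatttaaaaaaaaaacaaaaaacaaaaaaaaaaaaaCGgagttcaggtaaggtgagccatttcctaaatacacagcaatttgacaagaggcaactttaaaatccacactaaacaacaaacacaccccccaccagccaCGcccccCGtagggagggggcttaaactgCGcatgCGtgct
Cbr3: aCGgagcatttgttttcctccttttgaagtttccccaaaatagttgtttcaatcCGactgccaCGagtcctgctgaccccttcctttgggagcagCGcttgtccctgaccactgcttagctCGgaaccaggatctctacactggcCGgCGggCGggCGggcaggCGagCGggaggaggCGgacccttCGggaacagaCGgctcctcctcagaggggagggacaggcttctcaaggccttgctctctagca

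All 3 tested epoxide hydrolases rose, where 42% of all tested genes did so. Ephx1, the microsomal enzyme (chr1:180976210-181020904, minus strand), made up 97.7% of the family's FPKM with TGF-β alone and 97.2% with chaetocin. Its level was 129, 127, 130 and 128 CPM in the TGF-β libraries and 178, 184, 185 and 180 CPM in the chaetocin libraries. The groups were tight and apart (log2 fold change 0.50, SE 0.03, adjusted p = 8.91e-16). Ephx1 was thus one of the 4 called-higher members at or above 10 FPKM on average, and the family sum went from 77.6 ± 2.45 to 121 ± 3.11 FPKM. Ephx2, the soluble enzyme that hydrolyses epoxides of fatty acids, rose from 2.47 ± 0.508 to 4.08 ± 0.550 CPM (log2 change 0.70, SE 0.17, adjusted p = 0.000476), and Ephx4 from 0.807 ± 0.251 to 1.55 ± 0.251 CPM (log2 change 0.95, SE 0.26, adjusted p = 0.00154). Ephx3 had 5 and 14 counts and was not tested.

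Carboxylesterases were scarce in both groups, with a family sum of 0.780 ± 0.108 FPKM with TGF-β alone and 3.12 ± 0.328 FPKM with chaetocin. Only 5 of 19 were tested, and the 3 called higher had passed the filter only through the chaetocin libraries. Ces1a had 0, 0, 0 and 3 counts with TGF-β alone and 23, 20, 13 and 25 with chaetocin. The scaled ratio of the sums was 32.6 (95% interval 10.8 to 161.3, adjusted p = 1.25e-08), and 407 of its exon bases overlap a gene on the other strand. Ces1g, a liver esterase tied to lipid metabolism, rose from 0.164 ± 0.0530 to 1.14 ± 0.178 CPM (log2 change 2.72, SE 0.36, adjusted p = 9.81e-08) and Ces2f from 0.201 ± 0.122 to 0.984 ± 0.195 CPM (log2 change 2.24, SE 0.38, adjusted p = 6.95e-06). Ces2e and Ces2g did not pass the test, with log2 fold changes of 0.15 and 0.51. These calls rest on few counts: Ces1g summed to 14 and 79 counts and Ces2f to 17 and 68. With a minimum of 1 CPM in 4 libraries, 1 carboxylesterase was called higher instead of 3.

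The UDP-glucuronosyltransferases went from few or no counts to low levels. Of the 6 called higher, all but Ugt2b36 had passed the filter only through the chaetocin libraries. Ugt2b35 (ENSMUSG00000035811; chr5:87000860-87013275, plus strand) had 0, 1, 0 and 0 counts with TGF-β alone and 130, 82, 92 and 76 with chaetocin. The scaled ratio was 459 (95% interval 81.8 to 18159, adjusted p = 5.64e-17). Ugt2b1 (chr5:86916638-86926530, minus strand) had no count in any TGF-β library and 51, 23, 22 and 40 with chaetocin. Against a floor of 3 counts over the TGF-β group it was at least 54.7-fold higher (adjusted p = 3.29e-11). Ugt1a1, the enzyme that conjugates bilirubin (chr1:88211959-88218997, plus strand), likewise had no count in the TGF-β libraries and 42, 12, 11 and 22 with chaetocin. It was at least 35.0-fold higher against the same floor (adjusted p = 5.33e-09), and 922 of its exon bases overlap Gm20528 on the other strand. Levels stayed low in absolute terms, at 1.69 ± 0.167 FPKM for Ugt2b35, 0.775 ± 0.217 FPKM for Ugt2b1 and 0.552 ± 0.240 FPKM for Ugt1a1 with chaetocin.

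Ugt2b1 and Ugt2b35 show what the promoters of such genes look like, and their 250 bases before the RefSeq start follow (chr5:86926504-86926753, minus strand, and chr5:87000610-87000859, plus strand; GRCm38.p6, CG in capitals). They hold 1 and 2 CG dinucleotides:
Ugt2b1: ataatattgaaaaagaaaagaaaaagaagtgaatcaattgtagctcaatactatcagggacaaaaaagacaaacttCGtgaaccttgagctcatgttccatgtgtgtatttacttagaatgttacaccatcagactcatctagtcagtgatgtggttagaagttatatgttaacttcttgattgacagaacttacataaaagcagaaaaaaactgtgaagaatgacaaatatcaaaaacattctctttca
Ugt2b35: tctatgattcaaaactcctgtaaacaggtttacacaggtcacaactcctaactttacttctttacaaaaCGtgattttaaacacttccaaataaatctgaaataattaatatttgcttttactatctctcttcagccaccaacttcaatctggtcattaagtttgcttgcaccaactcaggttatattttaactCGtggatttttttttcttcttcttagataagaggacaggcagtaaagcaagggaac

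Ugt2b36 was the UGT2B gene with most counts in the TGF-β cells and rose from 0.954 ± 0.190 to 3.25 ± 0.501 CPM (log2 change 1.77, SE 0.21, adjusted p = 1.26e-08). Ugt2b34 had 1 count over the TGF-β libraries and 46 over the chaetocin libraries, a scaled ratio of 55.5 (95% interval 9.48 to 2240, adjusted p = 1.05e-07). The 9 Ugt1a genes of the table are alternative first exons spliced to the same last exons, so that 52.1% to 79.8% of their 50-base windows occur in another gene, and how the counting divided those reads is not stated. Among them Ugt1a6a rose from 0.337 ± 0.315 to 2.13 ± 0.699 CPM (log2 change 2.72, SE 0.41, adjusted p = 9.16e-07), while Ugt1a7c, which alone held 77.6% of the family's FPKM with TGF-β alone and 34.6% with chaetocin, did not pass the test (9.21 ± 0.669 and 10.7 ± 2.45 CPM, adjusted p = 0.11). The family sum went from 3.71 ± 0.336 to 11.6 ± 1.08 FPKM. Proximal tubule markers were followed beside these genes, since that tubule expresses many of them: Cubn rose from 8.07 ± 0.667 to 62.4 ± 3.50 CPM (adjusted p = 4.3e-25), Lrp2 fell from 67.7 ± 2.35 to 42.3 ± 2.78 CPM (adjusted p = 8.99e-14), Aqp1 fell from 4.34 ± 0.315 to 2.79 ± 0.950 CPM (adjusted p = 0.00346), Hnf4a did not pass the test (0.906 ± 0.173 and 0.914 ± 0.283 CPM), Slc34a1 had 1 and 2 counts, Slc22a8 0 and 2 counts, and Slc22a6 0 counts in all libraries. The part of proximal tubule character in the UGT results was not tested.

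All 5 tested sulfotransferases rose, where 42% of all tested genes did so. Of the 5, Sult1b1, Sult1e1 and Sult6b1 had passed the filter only through the chaetocin libraries, which fixed their direction. Sult1e1, estrogen sulfotransferase (chr5:87575969-87591594, minus strand), had 0, 2, 0 and 0 counts with TGF-β alone and 70, 30, 43 and 41 with chaetocin. The scaled ratio was 111 (95% interval 30.3 to 923.6, adjusted p = 1.22e-12). Sult1b1, which sulfates phenols and thyroid hormones, had 6 counts in all with TGF-β alone and 58 with chaetocin (log2 fold change 3.42, SE 0.49, adjusted p = 3.65e-07). Sult6b1 rose from 0.335 ± 0.125 to 2.12 ± 0.256 CPM (log2 change 2.63, SE 0.28, adjusted p = 2.64e-09). Sult4a1, a brain-enriched member with little known catalytic activity, was the most abundant and about doubled, from 2.10 ± 0.139 to 4.91 ± 0.635 FPKM (log2 fold change 1.06, SE 0.12, adjusted p = 3.54e-09). Sult2b1, which sulfates cholesterol, rose from 0.894 ± 0.146 to 2.51 ± 0.510 CPM (log2 change 1.51, SE 0.22, adjusted p = 7.3e-07). The family sum went from 3.46 ± 0.367 to 12.0 ± 0.479 FPKM.

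The other 54 members were too low to test: 6 Akr, 3 Aldh, 14 Ces, 1 Ephx, 16 Sult and 14 Ugt genes. At least 1 count was found for 45 of them. Of these 45, 44 had the higher mean CPM with chaetocin, and the exception was Sult5a1, with 3 counts in the TGF-β libraries and 2 in the chaetocin libraries. Together the 54 genes held 93 counts with TGF-β alone and 574 with chaetocin. Among all 5000 untested genes with a count, 4478 had the higher mean with chaetocin, so this lean was general. Zero counts in all 8 libraries were found for 9 members: Ces1b, Ugt2a2, Sult3a1 and the 6 genes Sult2a1, Sult2a2, Sult2a3, Sult2a4, Sult2a6 and Sult2a7, whose products sulfate bile acids and steroids in liver.

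Detection shifted in 1 direction. With TGF-β alone 70 members had a count, and with chaetocin all 98 that were detected at all. Hence 28 members (26.2%) were at 0 in all TGF-β libraries and present with chaetocin, and none was the reverse. Over the whole table the shares were 11.8% and 0.633%. The 28 were 10 Ugt, 9 Ces, 4 Akr, 3 Sult and 2 Aldh genes, among them Ugt1a10 with 52 counts, Aldh3b2 with 25, Ces3b with 22 and Sult1d1 with 18, named after their values were seen. The part of depth in this shift was not tested. Genes with a count numbered 15581 to 15834 per library with TGF-β alone and 17925 to 18454 per library with chaetocin.

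The direction of calls differed with level in these families and in the whole table. At low levels the filter set part of this. Below a mean of 1 FPKM over the 8 libraries, 14 of 16 tested members rose and none fell, where 70.8% of all tested genes at that level rose and 9.17% fell. Of those 14 members, 13 had passed the filter only through the chaetocin libraries, so their direction was fixed by it, and Ephx4 was the other one. Between 1 and 10 FPKM, 11 of 20 rose and 6 fell (38.5% and 38.7% of all genes). At 10 FPKM or more, 4 of 17 rose (Ephx1, Akr1c13, Akr1c12 and Cbr4) and 12 fell (33.4% and 50.5% of all genes). The sum over all members, which the abundant genes dominate, went from 996 ± 11.1 to 974 ± 7.55 FPKM. In TMM-scaled CPM the fall was larger, from 1767 ± 17.5 to 1560 ± 5.80.

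**Figure D3:**
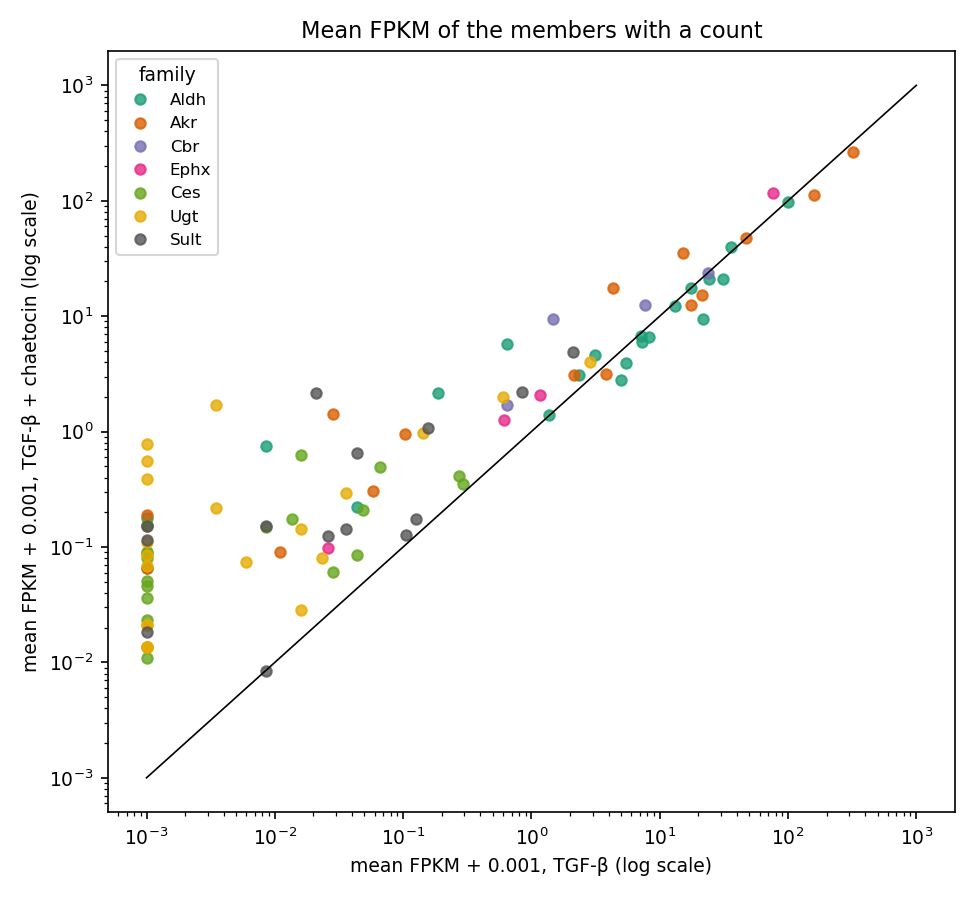
Mean FPKM of the 98 detected members with TGF-β alone (x axis) and with chaetocin (y axis), each plus 0.001 and on a log scale; a point is a gene, colours mark families and the line marks equal levels. Points at the left edge are the 28 members at 0 in all TGF-β libraries. Most scarce genes lie above the line, and of the most abundant ones Akr1a1 (321 and 265 FPKM) lies below it and Ephx1 (75.8 and 117.5 FPKM) above it.

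Many members are neighbours on their chromosome. The counts below stand beside 42% of all tested genes that rose and 38.8% that fell. The cluster on chromosome 5 (chr5:86889767-87591594) holds 10 UGT2 and 3 SULT1 genes. Its 6 tested members (Ugt2b34, Ugt2b1, Ugt2b35, Ugt2b36, Sult1b1 and Sult1e1) all rose, but 5 of them (all except Ugt2b36) had passed the filter only through the chaetocin libraries, so that their shared direction was fixed by it. Members with a count went from 7 with TGF-β alone to 12 with chaetocin. In the chromosome 13 cluster 4 of 6 tested AKR genes rose and 1 fell. Of those that rose, Akr1c14 and Akr1c18 had passed the filter only through the chaetocin libraries, which fixed their direction. In the AKR1B cluster on chromosome 6 all 3 tested genes fell, Akr1b8 only with some scalings. Both tested genes of the Ces1 cluster on chromosome 8 (Ces1a and Ces1g) rose, as did Aldh1a1 and Aldh1a7 on chromosome 19. Of these 4 genes all but Aldh1a1 had likewise passed the filter only through the chaetocin libraries. The pairs Cbr1 with Cbr3 and Aldh3a2 with Aldh3a1 each held 1 gene called lower and 1 called higher. The fall of Cbr1 was lost with total-count scaling, and the authors' log2 ratio for Aldh3a2 is 0.0047. Aldh3a1 had passed the filter only through the chaetocin libraries, which fixed its direction. Clusters were drawn after the values were seen, as members at most 200 kb from the next, and neighbours that share sequence are not independent.

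**Figure D4:**
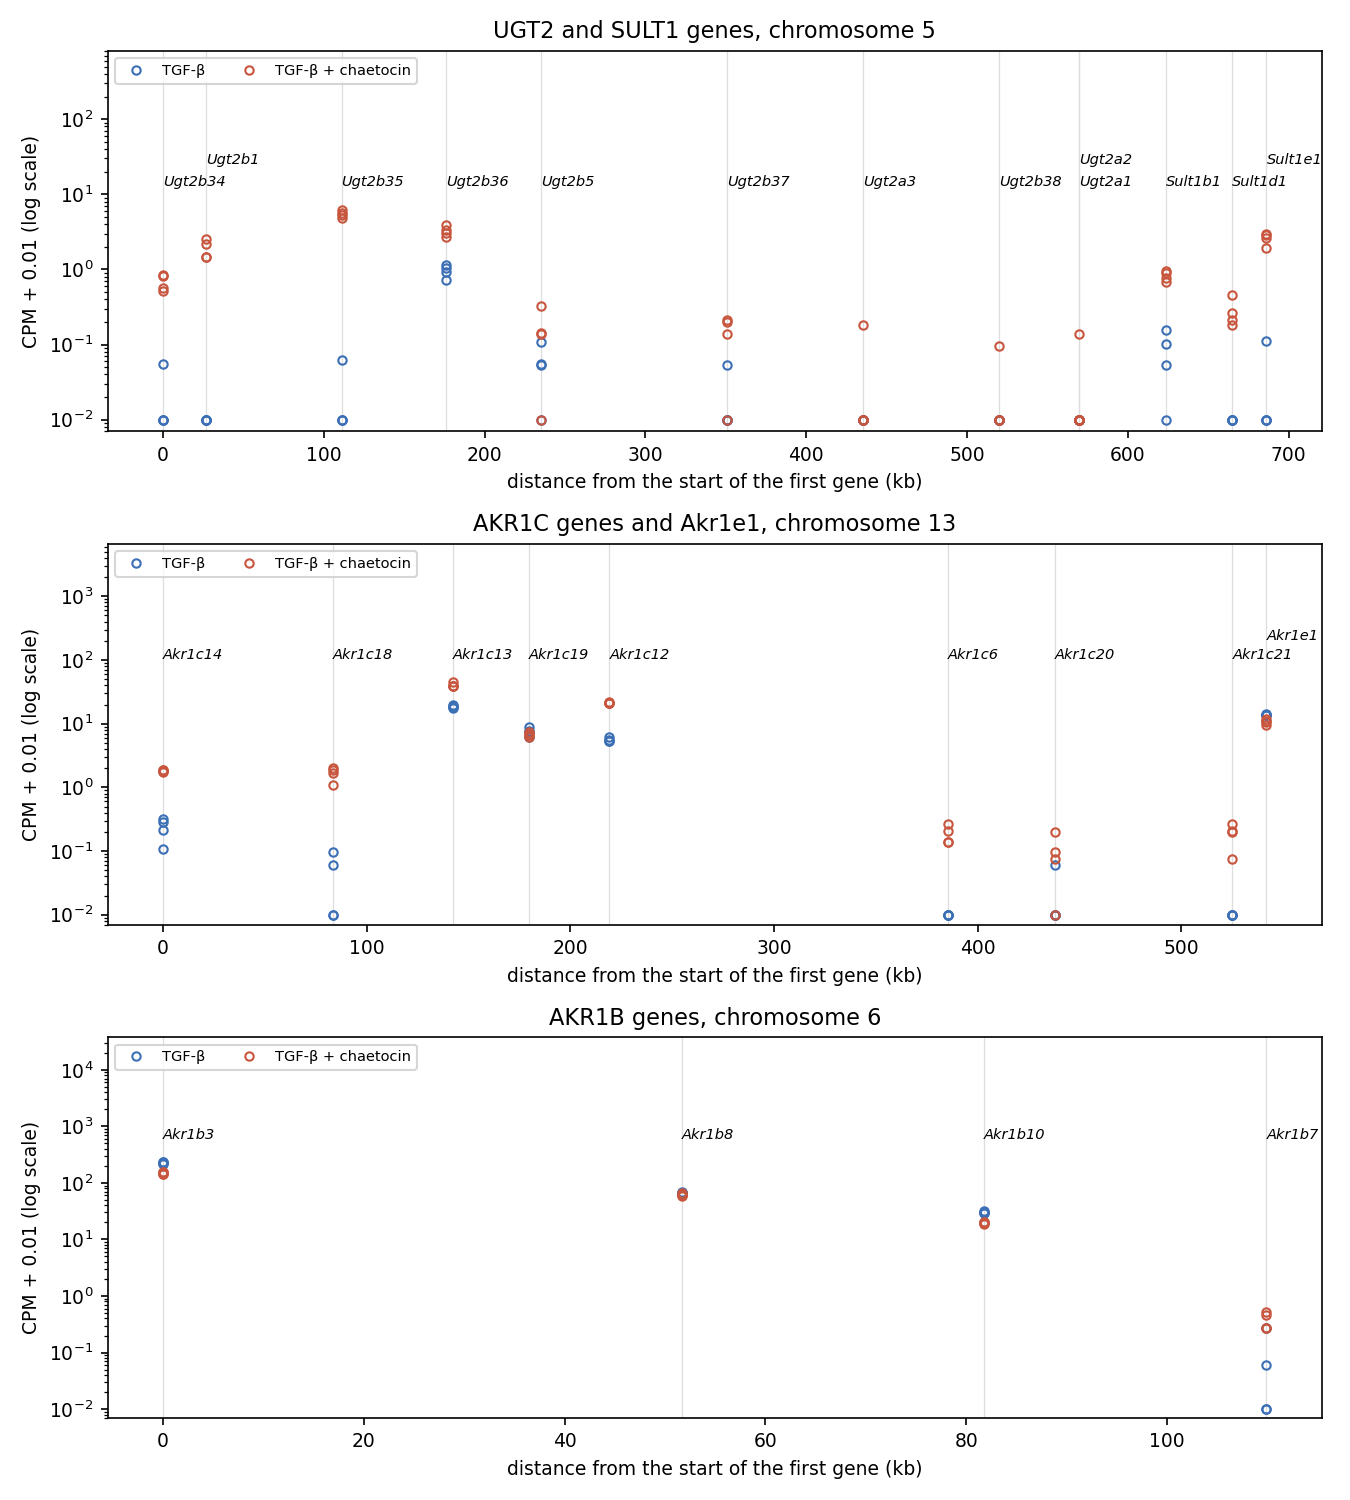
CPM plus 0.01 on a log scale (y axis) of the members in 3 gene clusters against the distance from the start of the first gene in kb (x axis); each open circle is 1 of the 8 libraries, in blue for TGF-β alone and red for TGF-β with chaetocin. In the chromosome 5 cluster the red circles lie above the blue ones for all 6 tested genes, in the chromosome 13 cluster for 4 of the tested genes and the untested Akr1c6 and Akr1c21, and in the chromosome 6 cluster blue lies above red for Akr1b3 and Akr1b10.

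Promoters from RefSeq (250 bases before to 50 after a start) were found for 88 of the 107 members, 95 sequences in all. The core of the antioxidant response element bound by NRF2, TGACNNNGC on either strand, occurred in 4 of the 95 (4.21%; Akr1c19, Akr1cl, Aldh1a2 and Aldh9a1), against 12.4% of all 32851 promoters of the table. Of these 4 genes Aldh1a2 and Aldh9a1 fell, Akr1c19 did not pass the test and Akr1cl was not tested. The core bound by AHR with ARNT, GCGTG on either strand, occurred in 19 of 95 (20%) against 32.4% of all, in 18 genes. Of these Akr1c14, Ephx4, Sult1b1 and Sult2b1 rose, and Akr1b8, Akr7a5, Aldh18a1, Aldh1a2, Aldh3a2, Aldh4a1, Aldh6a1, Aldh9a1 and Cbr1 fell. The other 5 were not tested. These are matches of letters in a short window and not binding sites. GCGTG itself holds a CG, and the median number of CG per promoter window was 3 over members and 15 over all genes. The part of base composition in these shares was not tested. With the window cut to the 200 bases before the start, 3.16% and 14.7% of member promoters matched against 8.60% and 24.7% of all.

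Member promoters were poor in CG. This count was added after the values were seen, and the highest count was taken for a gene with several promoters. The median number of CG dinucleotides in the 300 bases was 3 over the 26 of 29 members that rose and had a promoter. It was 11 over the 14 of 18 that fell and had one. Akr1b3, Aldh2, Aldh1a3 and Aldh1l2 fell and had none. All genes that rose had a median of 19 and all that fell 23. Among genes below 1 FPKM the 13 of 14 members that rose and had a promoter had a median of 2, against 8 over all rising genes there. At 10 FPKM or more, the 10 of 12 members that fell and had a promoter had a median of 11, against 24 over all falling genes. The range within members was wide, from 0 to 41 among those that rose, Ephx4 being the highest, and from 6 to 50 among those that fell. A second promoter of Ephx4 holds 4, as does a second one of Aldh6a1, which fell.

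Genes that work beside these enzymes were read from 6 lists of 93 genes, of which 84 were tested, 44 rose and 32 fell, where 42% and 38.8% of all tested genes did so. The share that fell is near that background, as are the shares that rose in the smaller lists on conjugation cofactors and retinoids. Among the other reductases and alcohol dehydrogenases, 13 of 21 tested genes rose and 8 fell. The quinone reductase gene Nqo1, a standard NRF2 target, had 1.75, 1.19, 1.28 and 1.45 CPM with TGF-β alone and 17.1, 16.4, 16.5 and 15.4 CPM with chaetocin (log2 fold change 3.52, SE 0.12, adjusted p = 3.43e-20). Its groups were far apart. Txnrd1, cytosolic thioredoxin reductase, rose from 332 ± 12.5 to 1167 ± 17.1 CPM (log2 change 1.81, SE 0.02, adjusted p = 5.18e-29) and Por, the reductase that feeds electrons to cytochromes P450, from 77.2 ± 2.95 to 195 ± 7.92 CPM (log2 change 1.34, SE 0.03, adjusted p = 2.48e-23). In the same list Dhrs3, which turns retinaldehyde back into retinol, fell from 44.8 ± 1.57 to 10.3 ± 1.32 CPM (log2 change -2.11, SE 0.07, adjusted p = 3.95e-21), and the cytochrome b5 reductase Cyb5r3 from 213 ± 5.52 to 149.7 ± 3.24 CPM (log2 change -0.51, adjusted p = 1.08e-15).

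Supply of cofactors for conjugation was mixed, with 6 of 16 tested genes higher and 9 lower, or 6 and 5 with total-count scaling. Ugdh, which makes UDP-glucuronate for the UGT enzymes, had 47.9, 45.4, 45.8 and 47.1 CPM and then 104, 105, 107 and 111 CPM (log2 change 1.19, SE 0.04, adjusted p = 1.34e-21). The groups did not overlap. The 2 synthases of the sulfate donor PAPS went opposite ways: Papss1 rose from 41.7 ± 2.40 to 63.3 ± 1.39 CPM (log2 change 0.60, adjusted p = 5.1e-13) and Papss2 fell from 14.3 ± 0.843 to 10.9 ± 0.768 CPM (log2 change -0.39, adjusted p = 5.94e-05). The PAPS transporter gene Slc35b2 fell (log2 fold change -0.77, adjusted p = 7.07e-14) and the acetyltransferase gene Nat2 rose from 6.64 ± 0.731 to 15.7 ± 0.219 CPM (adjusted p = 3.17e-13).

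In the list on supply of glucose 6-phosphate and of NADPH, the coenzyme of the reductases, 5 of 7 genes rose and 2 fell. Not every gene of this list encodes an enzyme that itself makes NADPH. The pentose phosphate genes Taldo1 and G6pdx rose from 134 ± 4.27 to 288 ± 9.67 CPM (log2 change 1.11, adjusted p = 7.83e-23) and from 102 ± 2.10 to 170.2 ± 4.20 CPM (log2 change 0.74, adjusted p = 6.76e-19). H6pd, the hexose phosphate dehydrogenase of the endoplasmic reticulum, fell from 184 ± 3.19 to 95.4 ± 6.81 CPM (log2 change -0.95, adjusted p = 4.04e-19) and Idh1 from 48.9 ± 1.49 to 37.7 ± 1.30 CPM (log2 change -0.38, adjusted p = 9.34e-09). In the retinoid pathway, which the Aldh1a enzymes complete, 6 of 15 tested genes rose and 6 fell (6 and 3 with total-count scaling). Rdh10, the enzyme that makes retinaldehyde, fell from 256 ± 6.23 to 73.8 ± 3.79 CPM (log2 change -1.79, adjusted p = 1.56e-26), next to the fall of Dhrs3, which runs the reverse step. The receptor gene Rarg rose from 27.6 ± 1.03 to 88.6 ± 3.79 CPM (log2 change 1.68, adjusted p = 3.23e-23) and the retinol transporter gene Stra6 from 7.14 ± 0.684 to 20.8 ± 0.859 CPM (log2 change 1.54, adjusted p = 3.17e-16).

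Among the regulators, 7 of 14 tested genes rose and 5 fell. Nfe2l2 mRNA had 165, 164, 171 and 171 CPM with TGF-β alone and 135, 132, 135 and 136 CPM with chaetocin, a fall with no overlap (log2 fold change -0.32, SE 0.03, adjusted p = 3.32e-11). Keap1, whose product holds NRF2 back, did not pass the test (29.6 ± 1.34 and 31.0 ± 1.12 CPM, log2 fold change 0.07, adjusted p = 0.233) but was called higher with total-count scaling (0.18, adjusted p = 0.0026). Mafg, a small MAF partner of NRF2, rose from 132 ± 2.78 to 376 ± 13.5 CPM (log2 change 1.52, adjusted p = 2.99e-26). Ahr fell from 29.8 ± 1.71 to 23.1 ± 0.820 CPM (log2 change -0.37, adjusted p = 9.37e-07) and its partner Arnt from 62.8 ± 1.86 to 42.0 ± 0.752 CPM (log2 change -0.58, adjusted p = 2.07e-13), while the AHR target Tiparp rose from 22.8 ± 0.760 to 45.1 ± 2.68 CPM (log2 change 0.98, adjusted p = 8.53e-16). Of the carriers that move conjugates and drugs, 7 of 12 rose and 3 fell. Abcb1a, P-glycoprotein, rose from 2.01 ± 0.469 to 22.5 ± 1.39 CPM (log2 change 3.47, adjusted p = 8.21e-21) and Abcg2 from 29.5 ± 0.622 to 62.9 ± 2.98 CPM (log2 change 1.09, adjusted p = 1.98e-18). The organic anion transporter genes Slco2a1 and Slco4a1 fell from 314 ± 9.43 to 178 ± 2.43 CPM (adjusted p = 7.27e-21) and from 16.4 ± 2.74 to 9.51 ± 1.39 CPM (adjusted p = 2.83e-07).

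**Figure D5:**
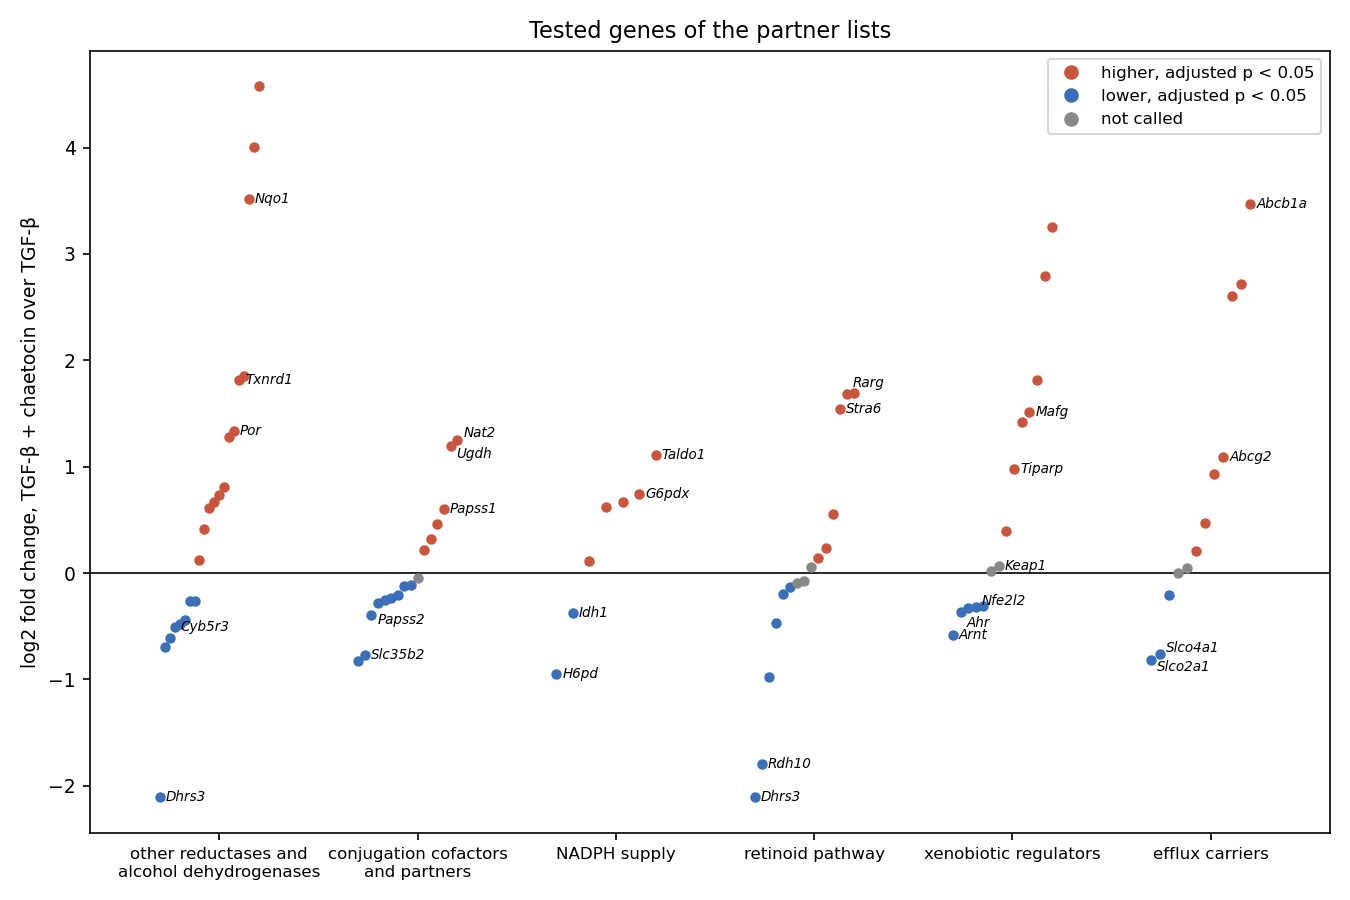
Log2 fold change of TGF-β with chaetocin over TGF-β alone (y axis, edgeR) for the tested genes of the 6 partner lists (x axis); each point is a gene, ordered within its list by fold change, with colours for called higher, called lower and not called. Dhrs3, at -2.11 and a member of 2 of the lists, is the lowest point, followed by Rdh10 at -1.79, and named genes near the top include Nqo1 at 3.52 and Abcb1a at 3.47.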

How the data were processed

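RNA of 8 libraries was sequenced by the study, 4 with TGF-β and 4 with TGF-β and chaetocin, and groups were taken from the treatment labels. The read counts per gene were deposited by the authors, whole numbers that name a gene in every row, with no column of other samples. FPKM values (and their group means) were also deposited by the authors. The deposited log2 ratios compare those mean FPKM, and the deposited p-values come from a test that the file does not name, per the file headers. The genome build was GRCm38 (mm10), per the submitters' processing notes. No aligner, counter, annotation release or strand setting is given in the sources used here.

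Counts were fitted across all genes with edgeR 4.0.16 (R 4.3.3): TMM scaling, edgeR's filter on low counts with a minimum of 10, the quasi-likelihood test with the treatment as the only term, and Benjamini-Hochberg adjustment over the 14608 genes tested. Every adjusted p in the report is from this fit or, where said, from an alternative. The fit was tested on simulated data in which only genes with ample counts were changed. CPM are scaled by TMM, and SD are over n = 4. Ratios of summed counts have exact 95% intervals, and the floor for genes at 0 is 3 counts over the group. Alternatives were other scalings, filters and tests (limma 3.58.1 with voom or on log2 FPKM with a pseudocount of 1 or 0.1, DESeq2 1.42.0), a replicate block and leaving out each library.

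The members and lists were chosen with earlier results of these data known. Named members were, in each family, up to 4 called genes with the smallest p in each direction (2 where none was called), the 6 highest by mean FPKM and every called gene at 0 in 1 group. Named partners were 2 called genes per direction and list, with Nfe2l2, Keap1, Ahr, Nqo1, Ugdh, Papss1 and Papss2. A partner gene that met this rule is not reported here. Other named genes were chosen after their values were seen, as were the gene clusters, the CG counts, the shared 50-base windows (GENCODE M21) and the FPKM ranges. All 107 members were found in GENCODE M21, and coordinates are from it. Promoters are RefSeq sequences. Identity between proteins, part of the planned analysis, was not analysed here.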

Additional observations from a re-analysis of the deposited data

Results flagged for a closer look

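The 53 tested members and the 28 named partner genes were examined in each group for a library far from the other 3, in 160 groups of 4 libraries that were not all at 0. Marker genes and untested members were not examined. Chance would single out about 1 group in 20 of ample counts, and 15 were singled out. A library with a count where the other 3 have none is always singled out, so 15 cannot be set against that rate.

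Among genes with ample counts, Akr1c13 stood at 45.3 CPM in chaetocin replicate 4 against 39.0 to 39.4 in the others. Aldh2 was lowest in the same library, at 115.5 CPM against 125.0 to 126.7. Ugt1a7c was at 14.3 CPM in chaetocin replicate 3 against 9.06 to 9.91. Aldh1l2 was at 41.9 CPM in TGF-β replicate 3 against 45.5 to 46.1, and Aldh9a1 at 40.4 CPM in TGF-β replicate 4 against 38.5 to 38.8. In TGF-β replicate 1, Dhrs3 was lowest at 42.4 CPM against 45.4 to 45.6, and Cyb5r3 was lowest at 204.7 CPM against 215.2 to 216.1.

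Among scarce genes, Cbr2 was at 1.10 CPM (25 counts) in TGF-β replicate 4 against 0.593 to 0.670. Ces1g was at 1.41 CPM (22 counts) in chaetocin replicate 2 against 1.02 to 1.07, and Ces2f at 1.28 CPM (20 counts) in chaetocin replicate 4 against 0.867 to 0.897. The other 5 are single TGF-β libraries with any count where the others had none. These are Aldh3a1 and Ugt2b34 at 0.0459 CPM each (1 count, replicate 1), Ugt2b35 at 0.0515 CPM (1 count, replicate 2), Sult1e1 at 0.103 CPM (2 counts, replicate 2) and Ces1a at 0.132 CPM (3 counts, replicate 4).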

How the results depend on the processing

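Of the 37 named members, 33 kept their direction and their side of the threshold in all 18 alternatives that gave them a value, the exceptions being Akr1b8, Aldh2, Cbr1 and Aldh7a1. Akr1b8 turned from lower to a log2 difference of 0.0028 with total-count scaling, 0.00308 on log2(FPKM + 1) with or without the filter and 0.00312 on log2(FPKM + 0.1), and the cause was not tested. Aldh2 (-0.05 and -0.04) and Cbr1 (-0.08 and -0.01) were not called with total-count scaling and on FPKM.

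The filter sets how many scarce members could be called. Without it 98 members were tested, and 55 members were called higher, of them 8 Akr, 8 Aldh, 11 Ces, 9 Sult and 13 Ugt genes. DESeq2 called 47 higher, of them 7 Akr, 8 Aldh, 8 Ces, 8 Sult and 10 Ugt. With at least 1 CPM in 4 libraries 1 Ces gene was called higher. With total-count scaling 0 Cbr genes were called lower. On FPKM the filter was another one, an FPKM above 1 in at least 4 libraries, so that both unit and filter changed. There, at either pseudocount, 39 members were tested, 0 Ces, 3 Sult and 3 Ugt genes were higher, 0 Cbr genes lower and 20 partner genes lower. On log2(FPKM + 1) without a filter, 54 members were higher (9 Akr, 9 Aldh, 8 Ces, 9 Sult, 13 Ugt), 0 Cbr genes lower and 21 partner genes lower. Requiring a fold of at least 2 as well left 2884 genes higher and 713 lower, 2 members lower, 22 partner genes higher and 2 lower, 3 Aldh and 0 Ephx genes higher, and 0 Akr, 2 Aldh and 0 Cbr genes lower. Leaving out 1 library gave 29 to 32 members higher and 17 to 18 lower, and 6030 to 6276 genes higher and 5538 to 5677 lower.

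Replicate numbers did not pair the libraries: same-numbered libraries correlated at 0.00666, 0.0356, 0.00659 and -0.0166 in their deviations from the group means. With the replicate block 29 members were higher and 18 lower, and 6105 genes were higher and 5643 lower. At this depth the 54 untested members held 93 counts with TGF-β alone and 574 with chaetocin, too few to test.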

Other observations

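The authors' deposited table gives a log2 ratio of mean FPKM for each gene. Its sign was that of the edgeR fit for 45 of the 47 called members, the exceptions being Akr1b8 and Aldh3a2.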
